A study of Mus musculus with 12 samples.

Results

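Spleen RNA of B+A10-FMT mice was compared with that of B+Con-FMT mice, 3 against 3. The members were the 6 mice of these groups among the 12 mice sequenced, taken by the treatment given in their labels, and 12368 of 18221 genes were kept, those with at least 1 RPKM (reads per kilobase of transcript, scaled to the reads of the library) in at least 3 of the 6 mice. All mice were males of the outbred ICR stock, 3 weeks old at the start and 8 weeks old when the spleen was taken, and all 6 had received a single injection of 40 mg/kg busulfan, an alkylating anticancer drug. They were then gavaged once daily for 2 weeks with gut microbiota (fecal microbiota transplantation, FMT) and kept for 3 more weeks. The microbiota for B+A10-FMT came from the small intestine of donors dosed for 3 weeks with 10 mg/kg alginate oligosaccharide (AOS), and that for B+Con-FMT from donors given water. The other groups, 3 mice each, were B-sa (busulfan and saline) and Con-sa (saline without busulfan), whose levels are given for reference. The contents of the donors of each kind were pooled, so each FMT group rests on 1 donor pool, ICR mice differ in genotype, and cages and litters are not given in the sources used here. The p-values measure only the spread between these mice.

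The red pulp of the spleen filters blood through sinuses lined by endothelium, and its macrophages take up old red cells and return their iron. The white pulp holds T and B lymphocytes on a stromal scaffold, and macrophages of the marginal zone around it bind blood-borne microbes. Cytosolic chaperones, the heat shock proteins, keep proteins folded, and many of their genes are switched on together by the factor HSF1, which binds repeats of the letters GAA in their promoters. In bulk tissue, fewer cells of a type and less RNA per cell cannot be told apart.

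All 17 spleen markers checked, among them Cd3e of T cells and the spleen-forming factor Tlx1, had at least 1 RPKM in all 12 mice. Genes of the pancreas, which lies against the spleen, were also present, at levels that differed between mice. The summed RPKM of the 35 pancreatic genes was 632, 1130 and 13558 in B+A10-FMT replicates 1 to 3, against 18372, 17195 and 11406 in B+Con-FMT. Replicate 3 of B+A10-FMT therefore lay within the range of B+Con-FMT, the other 2 far below it. In B-sa the sum was 4678, 1378 and 655, and in Con-sa 4319, 9789 and 1813. Of the 31 pancreatic genes kept, 1 (Ins1, an insulin gene) was called lower, against 2.93% of all genes, and the list median was a log2 fold change of -2.75. Without B+A10-FMT replicate 3, 25 were called lower, against 259 of 12368 genes in that setting, and without replicate 1 or 2 none, nor without B+Con-FMT replicate 1 or 3. The lists for the capsule and for fat had no member called lower, though without single mice up to 2 of 11 capsule genes were. For fat, 1 of 15 genes kept was called higher (8.11% of all genes). The part of pancreatic RNA in the results below was not tested beyond a fit with its summed level as a covariate, chosen after seeing the data, whose counts are given for the main lists. The deposited tables hold no read counts, and the sum of RPKM was 677033 to 701773 in B+A10-FMT and 720595 to 756073 in B+Con-FMT.

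**Figure D1:**
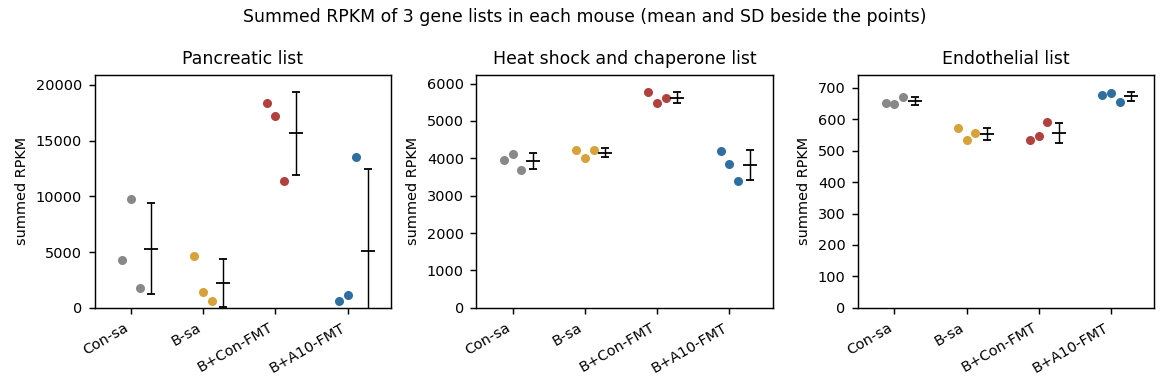
Summed RPKM of the pancreatic, heat shock and endothelial lists (y axes, from 0) in the mice of the 4 groups (x axes). Points are mice, and the bar beside them is the mean with its SD, which for B+A10-FMT in the pancreatic panel reaches below 0 and is cut at the axis. The pancreatic sum was 632 and 1130 in 2 B+A10-FMT mice and 13558 in the other, whereas the heat shock sum was 3400 to 4208 in B+A10-FMT and 5474 to 5779 in B+Con-FMT.

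To identify genes that differed between the microbiota sources, each gene was tested with limma on log2(RPKM + 1). At an adjusted p under 0.05, 1365 genes (11.0% of those tested) were called, 1003 (8.11%) of them higher in the B+A10-FMT mice and 362 (2.93%) lower. Their absolute log2 fold change had a median of 0.32 and reached 1 in 13 genes, 2 higher and 11 lower. The 3 mice of B+A10-FMT were all above the 3 of B+Con-FMT in 2989 genes (24.2%) and all below in 1380 (11.2%). The balance of higher and lower calls depended on the scaling. With median-of-ratios scaling 568 genes were called higher and 703 lower, and with equal totals outside the globin genes 2153 and 243. The median log2 fold change over all genes was 0.05 as deposited, 0.001 with the former and 0.10 with the latter. Along transcript length it was 0.001 in the shortest of 5 equal groups of genes and 0.10 in the longest, and with this trend and that of GC content removed 681 were called higher and 572 lower. Without B+A10-FMT replicate 2 the count fell to 237, and without B+Con-FMT replicate 1, 2 or B+A10-FMT replicate 3 to 324, 506 and 843. It was 356 with the pancreatic covariate, 261 higher and 95 lower. Calls higher without B+A10-FMT replicates 1, 2 and 3 and B+Con-FMT replicates 1, 2 and 3 were 763, 173, 584, 226, 358 and 923. Calls lower in the same order were 234, 64, 259, 98, 148 and 261. List counts below for these settings are read against these totals of 12368 genes.

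**Figure D2:**
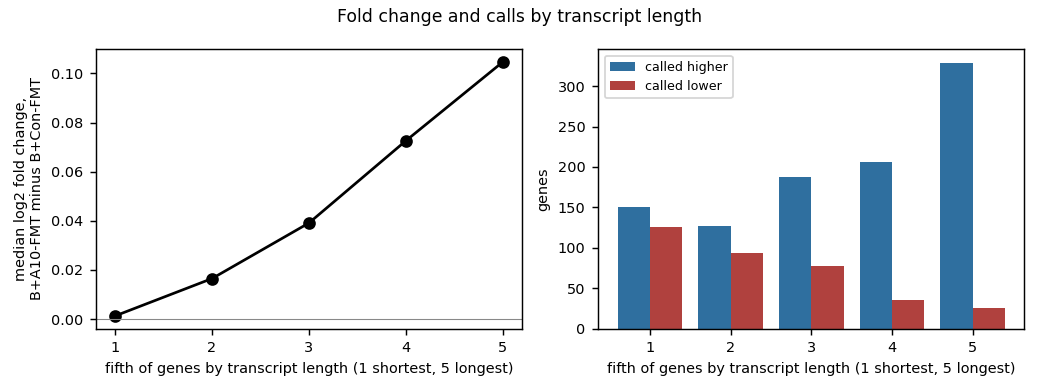
Median log2 fold change of RPKM + 1, B+A10-FMT minus B+Con-FMT (left), and the number of genes called higher or lower (right) in 5 groups of equal size by transcript length. The median went from 0.001 to 0.10, calls higher from 150 to 329 and calls lower from 126 to 26 from the shortest to the longest group.

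**Figure D3:**
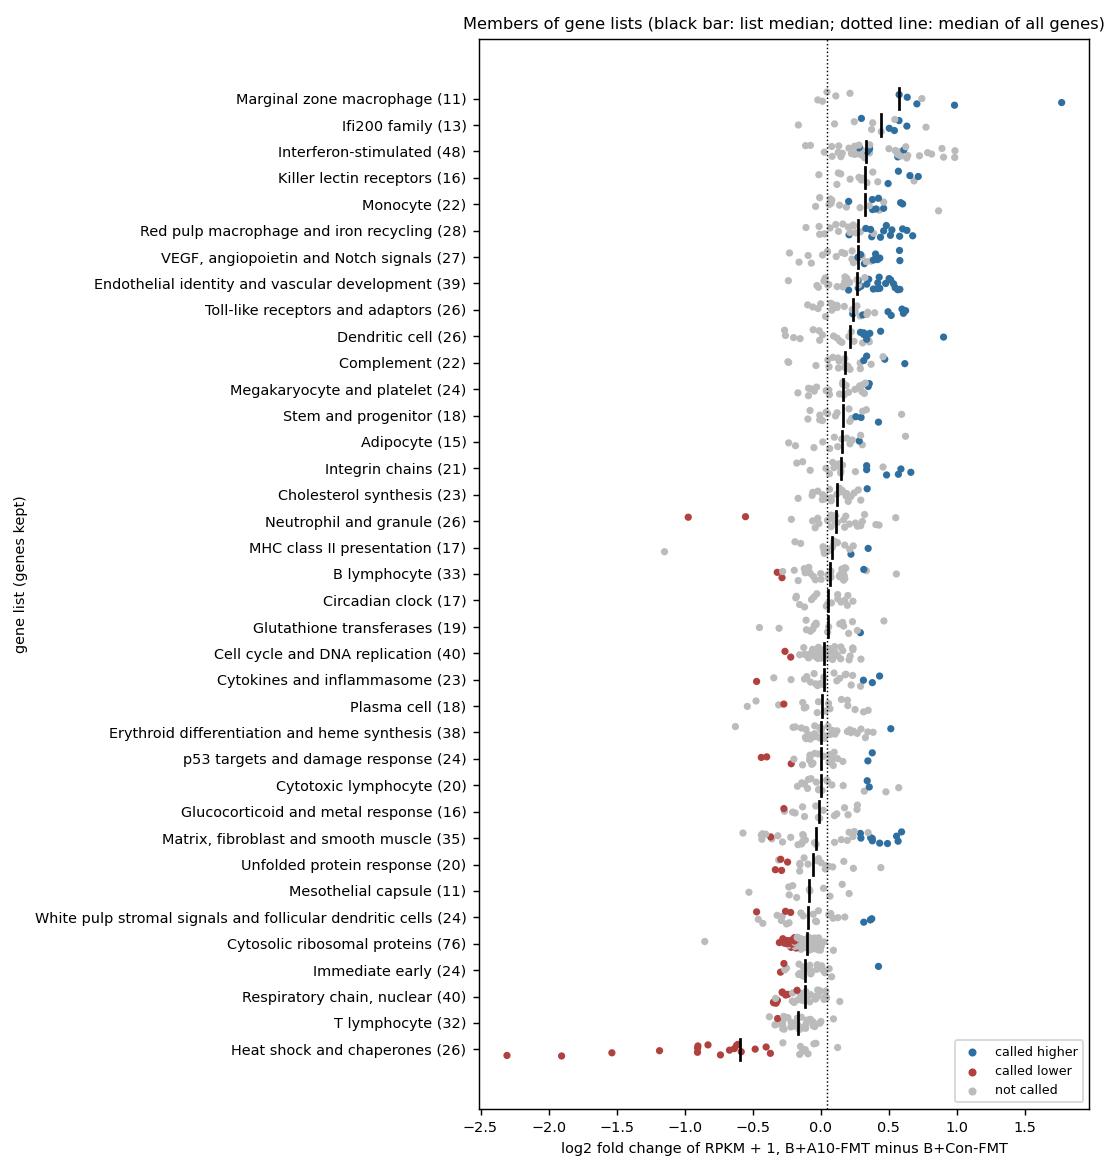
Log2 fold change of RPKM + 1, B+A10-FMT minus B+Con-FMT (x axis), of the members of the gene lists with at least 10 genes kept (y axis, pancreatic list left out). Points are genes, blue when called higher, red when called lower and grey otherwise, black bars are list medians and the dotted line is the median of all genes, 0.05. The heat shock list lay lowest, with a median of -0.60, and the marginal zone macrophage list highest, with 0.58.

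Most genes of the heat shock proteins were lower in the mice that received A10 microbiota. Of 26 members of the list, all kept, 17 were called lower and 0 higher by limma, against 2.93% of all genes called lower, and the list median was a log2 fold change of -0.60 against 0.05 over all genes. The 17 were Hspa1a, Hspa1b, Hsph1, Dnaja1, Hsp90aa1, Hspb1, Chordc1, Stip1, Hspa8, Dnajb1, Hspe1, Ahsa1, Fkbp4, Hsp90ab1, Hspd1, Bag3 and Hspa4l. Of these Hspa1a reached 1 RPKM in B+Con-FMT mice only and so was kept through the group where it was high, and 16 of the 25 other members were called lower. The 2 other scalings, the removal of the length trend and the pancreatic covariate gave 17, 17, 19 and 17 members called lower, and leaving out any 1 mouse 15 to 17. Hspa1a stayed among the members tested in these settings. It was the B+Con-FMT mice that stood apart. In 18 of the 26 genes, Hspa1a among them, all 3 of these mice were above the 9 other mice, a pattern found in 1.68% of all genes.

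Hsp90aa1 (chromosome 12, 110691036 to 110696395 in GRCm38), the inducible cytosolic HSP90, was at 342, 315 and 277 RPKM in the B+A10-FMT mice and at 652, 553 and 547 in the B+Con-FMT mice. The groups did not overlap, and the level in B-sa (359, 405 and 405) and Con-sa (335, 312 and 327) lay far below B+Con-FMT. Its log2 fold change was -0.91 (SE 0.085, adjusted p = 0.000209). Hsp90ab1 (chromosome 17, 45567778 to 45573261), the constitutive HSP90, was at 648, 609 and 581 RPKM against 955, 906 and 896, with a log2 fold change of -0.58 (SE 0.051, adjusted p = 0.000146). Stip1 (chromosome 19, 7020696 to 7040026), which links HSP70 to HSP90, was at 94.1, 84.8 and 74.5 RPKM against 152, 153 and 145, a log2 fold change of -0.83 (SE 0.071, adjusted p = 0.000146). Of these genes Stip1 had B-sa and Con-sa levels of 82.8 to 89.2 RPKM, all within the range of B+A10-FMT.

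Within the list, the largest relative differences were those of the inducible HSP70 genes. Hspa1b was at 2.38, 1.7 and 1.42 RPKM in B+A10-FMT and at 13.1, 19.7 and 8.13 in B+Con-FMT, a ratio of means of 7.45 (log2 fold change -2.31, SE 0.324, adjusted p = 0.00526). Its neighbour Hspa1a was at 0.81, 0.28 and 0.39 RPKM against 4.79, 7.06 and 2.62, with no test given since it was kept through the B+Con-FMT mice alone. The pair is nearly identical in sequence, so that reads could be shared between them and the split is uncertain. Hsph1 (chromosome 5, 149616843 to 149636498), a nucleotide exchange factor of HSP70, was at 49.0, 35.9 and 24.5 RPKM against 114, 113 and 86.8 (log2 fold change -1.53, SE 0.210, adjusted p = 0.00449). Dnaja1 (chromosome 4, 40722468 to 40734965), an HSP40 cochaperone, was at 73.5, 57.3 and 49.3 RPKM against 157, 144 and 111 (log2 fold change -1.18, SE 0.157, adjusted p = 0.00283). In all 4 genes the groups did not overlap. Within B+A10-FMT replicate 3 was the lowest for Hspa1b, Hsph1 and Dnaja1. A link to its high pancreatic sum was not tested beyond the covariate fit.

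The 9 members not called included chaperones of the endoplasmic reticulum. Hspa5, their HSP70, was at 271, 254 and 215 RPKM in B+A10-FMT and at 265, 271 and 285 in B+Con-FMT, overlapping groups, with a log2 fold change of -0.15 (95% interval -0.38 to 0.07, adjusted p = 0.344). Hsp90b1, Calr, Pdia3 and the collagen chaperone Serpinh1 were not called either, nor were Hspa4, Dnajb4, Cryab and Hsf1, the gene of the factor itself. Mean level of Hsf1 was 25.9 RPKM in B+A10-FMT and 28.8 in B+Con-FMT (log2 fold change -0.15, adjusted p = 0.15).

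**Figure D4:**
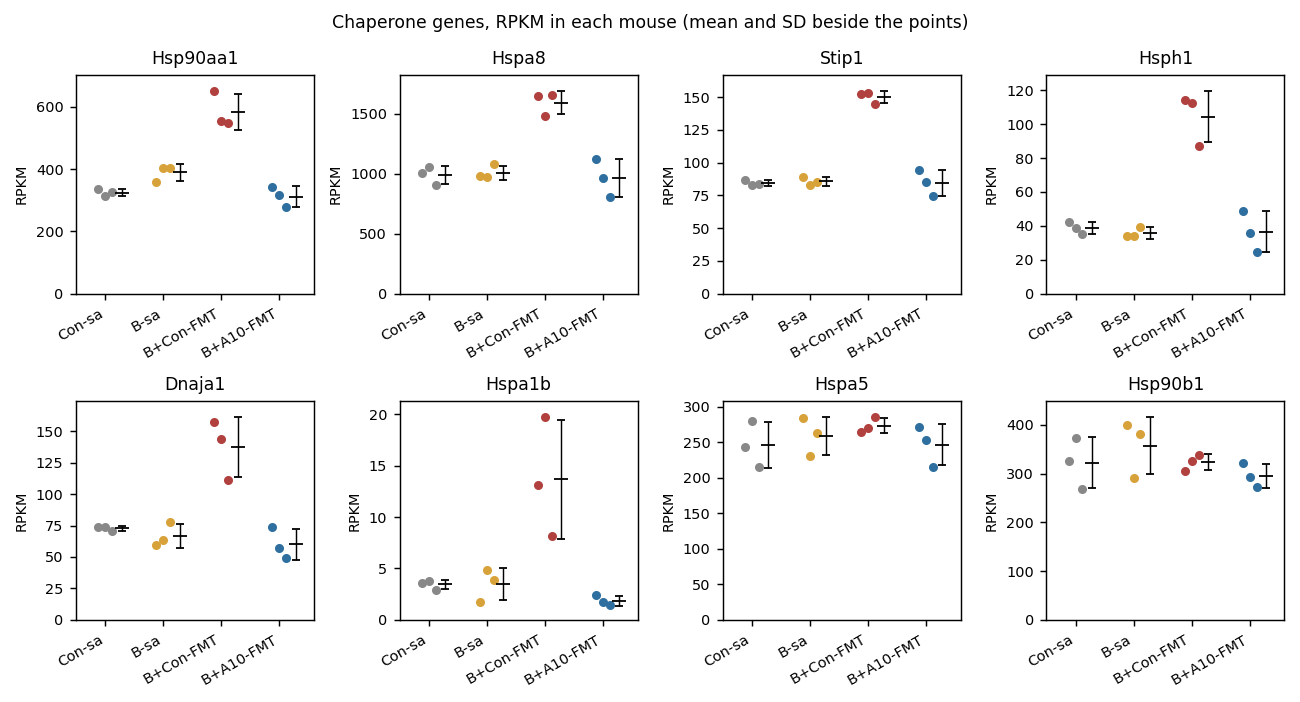
RPKM (y axes, from 0) of 8 chaperone genes in the mice of the 4 groups (x axes). Points are mice, with the mean and SD beside them. The 3 B+Con-FMT mice lay above all others for the 6 cytosolic genes Hsp90aa1, Hspa8, Stip1, Hsph1, Dnaja1 and Hspa1b, and overlapped with them for Hspa5 and Hsp90b1, chaperones of the endoplasmic reticulum.

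Promoters of these genes were searched for the letters GAANNTTC and TTCNNGAA, the core of the element bound by HSF1, which read the same on both strands and can overlap. In the 250 bases before a listed start, 8 of the 14 called members with a RefSeq promoter held a match (57.1%), against 1 of 7 of the members not called (14.3%) and 12.5% of the 9885 genes kept that had a promoter. A match is a description of the letters only. The called members include Hspa1a, kept through the B+Con-FMT mice alone. It is a near copy of Hspa1b, so that the same sequence may count more than once. Shares without it are not given. The 200 bases before the start are shown, 5′ to 3′ with the match in capitals, for the called members of largest change whose window holds a match and overlaps no annotated gene, Hspa1a left out as the near copy of Hspa1b (RefSeq, GRCm38.p6).
Hspa1b: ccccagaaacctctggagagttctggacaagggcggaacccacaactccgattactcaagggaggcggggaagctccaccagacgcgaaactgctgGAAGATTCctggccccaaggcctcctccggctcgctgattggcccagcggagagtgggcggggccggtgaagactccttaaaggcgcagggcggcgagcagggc
Hspb1: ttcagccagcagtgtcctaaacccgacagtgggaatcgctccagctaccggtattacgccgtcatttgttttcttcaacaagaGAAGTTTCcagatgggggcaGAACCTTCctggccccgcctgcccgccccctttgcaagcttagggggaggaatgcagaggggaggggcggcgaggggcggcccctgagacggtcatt
The first is chr17:34959239-34959438 on the minus strand, with 1 match 104 bases before the start. The second is chr5:135887719-135887918 on the plus strand, with 2 matches, 117 and 97 bases before the start. Hspb1, the small heat shock protein HSP27, was at 11.5, 6.92 and 7.9 RPKM in B+A10-FMT and at 14.2, 17.1 and 20.01 in B+Con-FMT (log2 fold change -0.91, SE 0.187, adjusted p = 0.0162).

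Part of the macrophage genes were higher in B+A10-FMT. Of 28 genes kept for red pulp macrophages and iron recycling 13 were called higher and 0 lower, against 8.11% of all genes called higher, with a list median of 0.27 on the log2 scale. In 8 of the 28 the 3 B+A10-FMT mice were above the 9 others, as in 2.91% of all genes. Of 11 genes of marginal zone macrophages 5 were called higher and 0 lower, with a median of 0.58. Scaling did not change the direction, with 9 and 14 of the red pulp list and 5 and 5 of the marginal zone list called higher with the 2 other scalings. With the pancreatic covariate 2 and 1 were called. Without B+A10-FMT replicates 1, 2 and 3 and B+Con-FMT replicates 1, 2 and 3 the red pulp count was 7, 3, 12, 4, 5 and 14, and the marginal zone count 2, 1, 5, 2, 2 and 5.

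Slc40a1, ferroportin, which exports iron from macrophages, was at 138, 156 and 129 RPKM in the B+A10-FMT mice and at 79.1, 89.5 and 94.7 in the B+Con-FMT mice. No B+A10-FMT mouse overlapped with any other group, since B-sa reached 106 and Con-sa 98.5. The log2 fold change was 0.68 (SE 0.102, adjusted p = 0.00357). Mertk, a receptor for the uptake of dying cells, was at 11.7, 14.3 and 13.1 RPKM against 7.03, 8.21 and 8.93 (log2 fold change 0.63, SE 0.102, adjusted p = 0.00445). Slc11a1 (NRAMP1), a metal transporter of the phagosome, had a log2 fold change of 0.51 (SE 0.093, adjusted p = 0.00803), but was not called with the pancreatic covariate. The other 10 called members were Axl, Cd68, Csf1r, Hmox1, Hpgd, Lrp1, Slc48a1, Spic, Treml4 and Vcam1. The ferritin genes Fth1 and Ftl1 had log2 fold changes of -0.01 and 0.03 and were not called, nor was Cd163, the hemoglobin scavenger receptor, at 3.25, 1.85 and 2.28 RPKM against 1.32, 1.52 and 2.03.

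Timd4, a phosphatidylserine receptor of tissue macrophages, was at 39.0, 47.1 and 36.7 RPKM in B+A10-FMT and at 23.6, 24.9 and 29.3 in B+Con-FMT (log2 fold change 0.64, SE 0.094, adjusted p = 0.00296), and was called without any 1 mouse and with the pancreatic covariate. Cd209b (SIGN-R1; chromosome 8, 3917655 to 3926841), the lectin of marginal zone macrophages, had the largest log2 fold change of the genes called higher, 1.77 (SE 0.375, adjusted p = 0.0242). It was at 23.4, 30.1 and 14.2 RPKM in B+A10-FMT and at 3.67, 4.33 and 10.7 in B+Con-FMT, whereas B-sa (10.3 to 14.5) overlapped with both groups and Con-sa (11.9 to 16.5) with B+A10-FMT. The B+A10-FMT mouse closest to B+Con-FMT was replicate 3, and a link to its pancreatic sum was not tested beyond the covariate fit. The call was lost with the pancreatic covariate and without replicate 1 or 2 of either group. Siglec1, sialoadhesin of the metallophilic macrophages, was at 16.2, 20.2 and 13.6 RPKM against 5.87, 7.52 and 10.8 (log2 fold change 0.98, SE 0.185, adjusted p = 0.0114), and its call was lost with the covariate and without B+A10-FMT replicate 2.

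**Figure D5:**
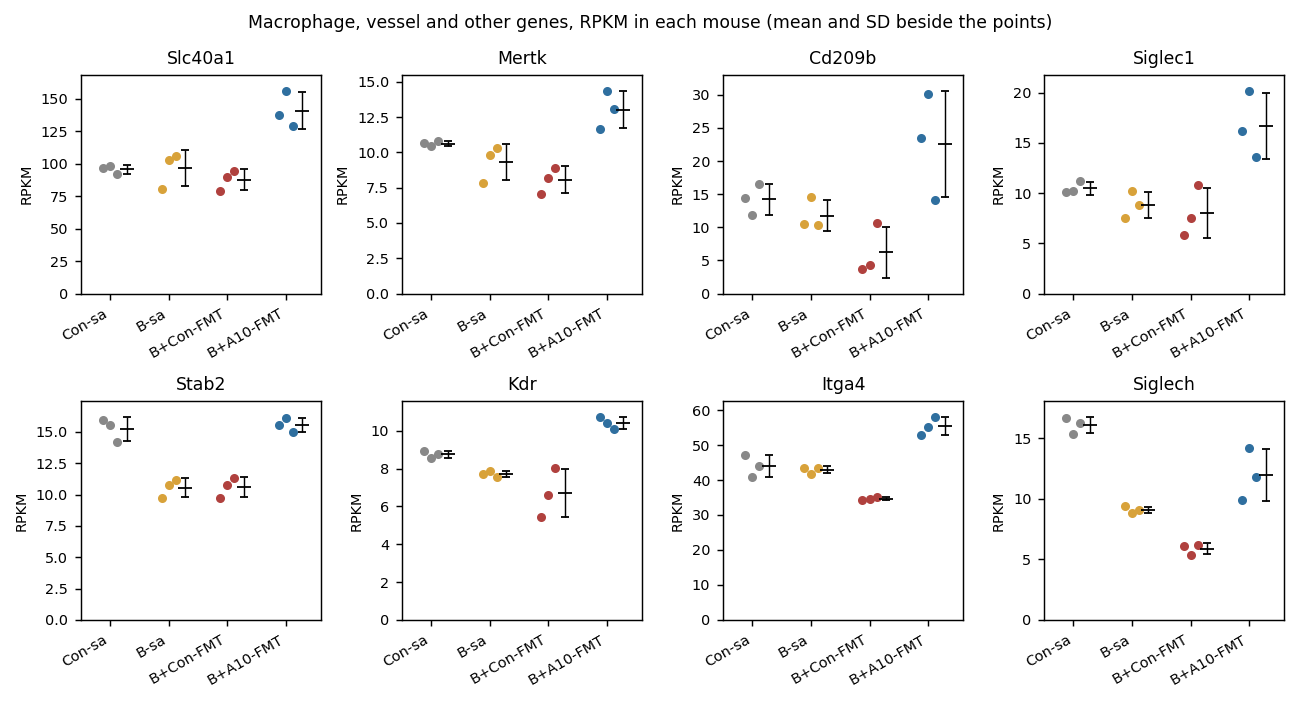
RPKM (y axes, from 0) of macrophage genes (Slc40a1, Mertk, Cd209b, Siglec1), endothelial genes (Stab2, Kdr), the integrin gene Itga4 and the plasmacytoid dendritic cell gene Siglech in the mice of the 4 groups (x axes). Points are mice, with the mean and SD beside them. B+A10-FMT and B+Con-FMT did not overlap in any of the 8 genes, and B+Con-FMT overlapped with B-sa for Slc40a1, Mertk, Cd209b, Siglec1, Stab2 and Kdr.

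Part of the endothelial genes were also higher. Of 39 genes of endothelial identity kept, 18 were called higher, against 8.11% of all genes, and 0 lower, the list median being 0.27 on the log2 scale, and in 22 of them all B+A10-FMT mice were above all 6 mice of B+Con-FMT and B-sa, a pattern of 11.9% of all genes. Of 27 genes of the VEGF, angiopoietin and Notch signals 11 were called higher (8.11% of all genes) and 0 lower, with a median of 0.27. Of the 11, Kdr, Flt1, Flt4, Tek and Tie1 are also counted in the endothelial list. Counts were 12 and 23 of the endothelial list with the 2 other scalings, 11 with the length trend removed (the list's median transcript length was 2170 bases, against 1385 for all genes) and 8 with the pancreatic covariate. They were 11, 7, 14, 8, 8 and 18 without B+A10-FMT replicates 1, 2 and 3 and B+Con-FMT replicates 1, 2 and 3. For the signalling list the counts were 9 and 16 with the scalings, 6 with the length trend removed, 2 with the covariate and 7, 3, 10, 3, 2 and 13 without each mouse in that order.

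Stab2, stabilin-2, a scavenger receptor of sinus endothelium, was at 15.6, 16.1 and 14.9 RPKM in B+A10-FMT and at 9.75, 10.8 and 11.3 in B+Con-FMT. B-sa (9.71, 10.8 and 11.2) lay at the level of B+Con-FMT and Con-sa (16.0, 15.6 and 14.2) at that of B+A10-FMT. The log2 fold change was 0.51 (SE 0.071, adjusted p = 0.00192). Kdr, the VEGF receptor VEGFR2, was at 10.7, 10.4 and 10.1 RPKM against 5.46, 6.61 and 8.01 (log2 fold change 0.58, SE 0.094, adjusted p = 0.00448). Eng, endoglin, a coreceptor of TGF-beta ligands, was at 46.3, 48.5 and 41.9 RPKM against 27.2, 30.7 and 35.0 (log2 fold change 0.55, SE 0.084, adjusted p = 0.00342). Both were above all mice of B+Con-FMT and B-sa. Ptprb, the endothelial phosphatase VE-PTP, had a log2 fold change of 0.53 (SE 0.083, adjusted p = 0.00361). Stab2, Kdr, Eng and Ptprb were called without any 1 mouse and with the covariate.

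The difference was smaller for Pecam1 (CD31), the vessel marker used for staining in the study, at 48.6, 51.0 and 53.5 RPKM against 43.9, 42.7 and 45.8 (log2 fold change 0.20, SE 0.057, adjusted p = 0.0383). Its call was lost with median-of-ratios scaling, the length trend removed, the covariate, and without B+A10-FMT replicates 2 or 3 or B+Con-FMT replicates 1 or 2. Vegfa, the main VEGF ligand, was at 28.4, 27.1 and 30.3 RPKM against 24.0, 21.9 and 22.2 (log2 fold change 0.32, SE 0.068, adjusted p = 0.0148), not called without B+Con-FMT replicate 2. Notch2, a Notch receptor, had a log2 fold change of 0.29 (SE 0.060, adjusted p = 0.0125), not called with the length trend removed or with the covariate. Of 17 genes whose proteins the study stained or blotted, all kept, 6 were called higher, against 8.11% of all genes, (Pecam1, Kdr, Vcam1, Gja1, Siglec1 and Slc40a1) and 0 lower.

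Matrix genes were split. Of 35 genes of matrix, fibroblasts and smooth muscle 10 were called higher, against 8.11% of all genes, and 1 lower (Postn), against 2.93%, and the list median of the log2 fold change was -0.03, or 0.02 with equal totals outside the globin genes. The called genes included the basement membrane genes Nid1, Col4a1 and Col4a2. Nid1, nidogen, was at 19.5, 20.1 and 19.3 RPKM in B+A10-FMT and at 11.6, 12.6 and 13.8 in B+Con-FMT (log2 fold change 0.59, SE 0.068, adjusted p = 0.000576). Of the smooth muscle genes, Mylk, a myosin kinase, was called higher (log2 fold change 0.29, adjusted p = 0.0376), whereas Acta2 (-0.44), Cnn1 (-0.43), Myh11 (-0.40), Tagln (-0.13) and Des (-0.13) were not called, nor was the fibrillar collagen gene Col1a1 (-0.17). The number called higher was 10, 6, 9, 6, 8 and 11 without each mouse in the order above, and 1 with the covariate. The number called lower was 0 or 1 without single mice.

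Of 21 integrin chains kept 6 were called higher, against 8.11% of all genes, and 0 lower, and without each mouse in the order above 4, 4, 5, 3, 4 and 7. With the covariate 2 were called. Itga4, the alpha-4 chain that binds VCAM-1 and MAdCAM-1, was called without any 1 mouse and with the covariate, with 52.9, 55.2 and 58.0 RPKM in B+A10-FMT and 34.2, 34.5 and 35.1 in B+Con-FMT, and with all B-sa and Con-sa mice (41.0 to 47.1) between them (log2 fold change 0.66, SE 0.056, adjusted p = 0.000146). Of its ligands, Vcam1 was at 145, 151 and 126 RPKM against 94.3, 112 and 119 (log2 fold change 0.37, SE 0.093, adjusted p = 0.0266), a call lost with median-of-ratios scaling, the length trend removed, the covariate, and without replicate 1 or 2 of either group. Madcam1 was at 12.5, 12.7 and 14.2 RPKM against 21.8, 17.0 and 16.9 (log2 fold change -0.46, adjusted p = 0.0719) and was called lower with median-of-ratios scaling and with only the 6 FMT mice in the fit. Gja1, connexin 43, a gap junction protein, was the only 1 of 4 connexins kept to be called, at 18.8, 19.6 and 20 RPKM against 13.3, 14.4 and 15.5 (log2 fold change 0.41, SE 0.069, adjusted p = 0.00552), also without any 1 mouse.

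Among 24 genes of white pulp stroma and follicular dendritic cells 3 were called higher (Cxcl12, Ltbr, Vcam1) and 3 lower (Enpp2, Ltb, Tnf), against 8.11% and 2.93% of all genes, and without B+A10-FMT replicate 1 or 2 or B+Con-FMT replicate 1 or 2 none was. Tnf, the inflammatory cytokine, was at 5.19, 5.07 and 5.16 RPKM against 8.49, 6.74 and 7.4, a call lost without any 1 of the 6 mice. Ccl21a, the chemokine of the T cell zone, was at 598, 477 and 621 RPKM against 827, 763 and 681 and was not called (log2 fold change -0.43, adjusted p = 0.218).

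Of 26 dendritic cell genes 8 were called higher, against 8.11% of all genes, and 0 lower, and 5 with median-of-ratios scaling. Siglech, the lectin of plasmacytoid dendritic cells, was at 9.91, 14.2 and 11.8 RPKM against 6.08, 5.39 and 6.21, with B-sa (8.84 to 9.38) between them and Con-sa (15.4 to 16.7) above (log2 fold change 0.90, SE 0.099, adjusted p = 0.000467). It was called without any 1 mouse and with the covariate. Without each mouse in the order above the list's count was 7, 2, 5, 3, 6 and 4, and with the covariate 3. Of 22 monocyte genes 8 were called higher (8.11% of all genes) and 0 lower, with 6, 1, 7, 3, 3 and 7 without each mouse and 0 with the covariate. Ace, the angiotensin-converting enzyme, had the lowest adjusted p of the 8. Ly6c1 and Ly6c2, markers of monocytes (Ly6c1 also of endothelium), were not called, at 58.3, 67.2 and 32.7 against 22.4, 29.0 and 31.1 RPKM (adjusted p = 0.0506, called higher with equal totals outside the globin genes, with the length trend removed and without B+A10-FMT replicate 3) and at 80.7, 111 and 34.0 against 35.6, 66.0 and 52.5 RPKM (adjusted p = 0.584).

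Of 26 Toll-like receptors and adaptors 7 were called higher, against 8.11% of all genes, and 0 lower, all of them receptors (Tlr3, Tlr4, Tlr6, Tlr7, Tlr11, Tlr13 and Cd180). Tlr7, which senses single-stranded RNA, was at 15.4, 20.5 and 16.2 RPKM against 10.9, 10.1 and 12.02 (log2 fold change 0.61, SE 0.114, adjusted p = 0.0087). Cd180, a Toll-like receptor homologue of B cells, was at 73.5, 82.3 and 76.1 RPKM against 49.2, 49.2 and 53.9 (log2 fold change 0.60, SE 0.108, adjusted p = 0.00807). Both were called without any 1 mouse. The list's count was 6, 2, 6, 3, 3 and 8 without each mouse, 5 with median-of-ratios scaling, 5 with the length trend removed and 2 with the covariate. Adaptors had small log2 fold changes, 0.12 for Myd88 and -0.06 for Ticam1.

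Interferon-stimulated genes had positive but variable differences. Of 48 kept 46 had an estimate above 0, the list median was 0.33 on the log2 scale, yet 7 were called higher, against 8.11% of all genes, and 0 lower. Over all genes 7618 of 12368 estimates were above 0. All B+A10-FMT mice were above all B+Con-FMT mice in 23 of the 48 (24.2% of all genes) and below them in 2 (11.2%). Of the 13 genes of the Ifi200 family of DNA sensors 5 were called higher (8.11% of all genes), with a median of 0.44. Ifi203 was at 37.4, 54.3 and 47.4 RPKM against 31.5, 29.4 and 32.8 (log2 fold change 0.54, SE 0.115, adjusted p = 0.0155). Both counts moved when single mice were left out, as did the calls over all genes. Without B+A10-FMT replicates 1, 2 and 3 and B+Con-FMT replicates 1, 2 and 3 the interferon list had 12, 0, 2, 0, 0 and 4. The Ifi200 family had 10, 0, 2, 1, 0 and 3. Calls higher over all 12368 genes were 763, 173, 584, 226, 358 and 923 in the same order. With median-of-ratios scaling the counts of the 2 lists were 5 and 2, with equal totals outside the globin genes 14 and 8, and with the covariate 6 and 3. In complement, 4 of 22 genes were called higher (8.11% of all genes; 2 without B+Con-FMT replicate 1), of which Cd46 was kept through the B+A10-FMT mice alone, with C6, a component of the membrane attack complex, at a log2 fold change of 0.62 (SE 0.115, adjusted p = 0.00828, lost with the covariate) and Cd55, which limits complement on cells, at 0.32 (SE 0.056, adjusted p = 0.00746). Of 23 cytokine and inflammasome genes, against the same share, 3 were called higher (Csf1, Il18 and Nlrp3, the last lost without B+A10-FMT replicate 2 or B+Con-FMT replicate 1) and 1 lower (Tnf). Csf1, the growth factor of macrophages, was at 34.1, 32.6 and 33.6 RPKM against 26.5, 24.9 and 28.9 (log2 fold change 0.31, SE 0.057, adjusted p = 0.00807), also called without any 1 mouse.

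Of lymphocyte genes, 1 of 32 in the T list and 3 of 33 in the B list were called, against 11.0% of all genes, and 4 of 16 killer lectin receptors kept were called higher, against 8.11%. Of 32 T lymphocyte genes 30 had an estimate below 0 and 1 was called lower (Gata3, log2 fold change -0.32, adjusted p = 0.0359, lost without any 1 mouse other than B+Con-FMT replicate 3), with a list median of -0.17. In 9 of them the B+A10-FMT mice were all below the B+Con-FMT mice, against 11.2% of all genes, and with the 2 other scalings the median was -0.22 and -0.12. In 6 of the 32 the B+Con-FMT mice were all above the 9 other mice, against 1.68% of all genes. Of 33 B lymphocyte genes 1 was called higher (Cd55) and 2 lower (Pax5, the B cell identity factor, and Tnfrsf13c, the BAFF receptor). Without replicate 1 or 2 of either group 0 were called lower, and the number called higher was 3 without B+A10-FMT replicate 3. Tnfrsf13c was at 68.7, 65.7 and 75.1 RPKM against 90.4, 95.7 and 76.8 (log2 fold change -0.32, adjusted p = 0.0246), lost with the covariate and without replicate 1 or 2 of either group. Many killer lectin receptors are found on natural killer cells, but not on these alone. None was called lower, with 15 of 16 estimates above 0 and a list median of 0.33 on the log2 scale. Their count called higher was 5, 2, 2, 2, 2 and 4 without each mouse and 4 with the covariate. In the separate list of 20 cytotoxic lymphocyte genes 2 were called higher (8.11% of all genes) and 0 lower. There 10 estimates were above 0 and 10 below, with a median of -0.0006. Klri2 was at 1.98, 2.67 and 2.06 RPKM against 0.97, 0.85 and 1.07, with B-sa at 0.94 to 1.29 and Con-sa at 3.08 to 3.39 (log2 fold change 0.72, SE 0.101, adjusted p = 0.00211). Klrk1 (NKG2D), an activating receptor, was at 4.71, 8.18 and 8.63 RPKM against 4.07, 3.97 and 4.13, so that 1 mouse of B+A10-FMT was close to B+Con-FMT (adjusted p = 0.0213, lost without replicate 2 or 3 of B+A10-FMT and 1 or 2 of B+Con-FMT). Of 26 neutrophil and granule genes 19 had an estimate above 0, and the list median was 0.12 on the log2 scale. By limma 0 were called higher and 2 lower (2.93% of all genes), the eosinophil granule genes Prg2 and Epx. Both calls were lost without any 1 of the 6 mice.

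In the lists for blood formation and proliferation, counts are read against 8.11% of all genes called higher and 2.93% lower. Globins made up 24.9% ± 2.28 (SD, n = 3) of the summed RPKM in B+A10-FMT and 27.1% ± 2.11 (SD, n = 3) in B+Con-FMT, a difference of -2.17 percentage points (p = 0.3 in a two-sided exact permutation test whose smallest p is 0.1). Of 8 globin genes kept 0 were called by limma, and 2 had an unadjusted p under 0.05. Of 38 erythroid genes 1 was called higher (Trim58, lost without replicate 1 or 2 of either group). Of 18 stem and progenitor genes 3 were called higher (1 with the covariate and without B+A10-FMT replicate 2 or B+Con-FMT replicate 1, 5 without B+Con-FMT replicate 3). The lowest adjusted p of the 3 was that of Kit, the receptor of stem cell factor. Kit was at 9.04, 9.71 and 9.39 RPKM against 6.66, 6.54 and 7.01 (log2 fold change 0.42, SE 0.058, adjusted p = 0.00189). Of 40 cell cycle genes 0 were called higher and 2 lower (Tyms and Ccnd3), neither with equal totals outside the globin genes nor without replicate 1 or 2 of either group. Mki67, the proliferation marker, was at 170.0, 170.0 and 163 RPKM against 135, 136 and 164 (adjusted p = 0.191). Of 24 genes of p53 and the damage response 2 were called higher and 3 lower, and without each mouse in the order above 3, 1, 2, 0, 1 and 5 in either direction (11.0% of all genes), and 0 with the covariate. Trp53 itself was at 91.0, 99.7 and 92.0 RPKM against 89.1, 85.2 and 90.7 (log2 fold change 0.09, adjusted p = 0.307, called only with equal totals outside the globin genes), and its proapoptotic target Bax at 68.0, 66.3 and 64.8 against 76.7, 77.8 and 77.3 (log2 fold change -0.22, adjusted p = 0.0246), lost with equal totals outside the globin genes, with the covariate, and without B+A10-FMT replicate 2 or 3 or B+Con-FMT replicate 1 or 2.

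Some ribosomal and respiratory chain genes were lower by small amounts, in numbers that moved when single mice were left out. Of 76 cytosolic ribosomal protein genes 12 were called lower, against 2.93% of all genes, and 0 higher, and the list median was -0.10 on the log2 scale. Rps12 was at 2484, 2500 and 2449 RPKM in B+A10-FMT and at 3000, 2900 and 2915 in B+Con-FMT (log2 fold change -0.25, SE 0.040, adjusted p = 0.00487), and Rplp2 at 1498, 1471 and 1460 against 1893, 1904 and 1682 (log2 fold change -0.30, SE 0.056, adjusted p = 0.00815). Of 40 nuclear genes of the respiratory chain 9 were called lower (2.93% of all genes) and 0 higher, with a median of -0.12. Cox4i1, a subunit of cytochrome c oxidase, was at 318, 293 and 302 RPKM against 356, 367 and 358 (log2 fold change -0.24, SE 0.047, adjusted p = 0.00979), lost without B+A10-FMT replicate 2. Transcripts of both lists are short (median 634.5 and 640.0 bases), and short genes as a whole had lower fold changes. A link to length was not tested beyond a fit with that trend removed. With the length and GC trend removed 16 and 11 were called lower, with the 2 scalings 29 and 11 of the ribosomal and 15 and 6 of the respiratory genes. Without each mouse in the order above the counts were 8, 3, 5, 2, 2 and 8 for the ribosomal list. For the respiratory list they were 6, 0, 3, 4, 1 and 3, and with the covariate the 2 lists had 2 and 4. Calls lower over all 12368 genes were 234, 64, 259, 98, 148 and 261 without each mouse. They were 703 and 243 with the 2 scalings and 95 with the covariate, and 572 of 12187 genes with the trend removed. Of 20 genes of the unfolded protein response 4 were called lower (2.93% of all genes; 1 or 2 without any 1 mouse, 1 with the covariate), with Atf4, its transcription factor for amino acid supply, at 145, 132 and 145 RPKM against 177, 179 and 177 (log2 fold change -0.33, SE 0.059, adjusted p = 0.00746).

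Several of the largest differences were in genes outside these groups. Kap (chromosome 6, 133849855 to 133853667), an androgen-regulated gene of the kidney, was at 1.43, 0.58 and 2.96 RPKM in B+A10-FMT and at 23.3, 16.8 and 60.0 in B+Con-FMT (log2 fold change -3.59, SE 0.508, adjusted p = 0.00777). Levels in the saline groups were 7.23 to 14.4 in B-sa and 72.7 to 112 in Con-sa, and no other gene of the 5 kidney genes kept was called. Aass (chromosome 6, 23072173 to 23132986), an enzyme of lysine breakdown, was at 7.17, 0.96 and 1.02 RPKM against 22.7, 19.4 and 23.8, with 11.6 to 23.9 in B-sa and 0.88 to 3.04 in Con-sa (log2 fold change -2.84, SE 0.566, adjusted p = 0.021). Its call was lost without B+A10-FMT replicate 2 or 3 or B+Con-FMT replicate 1 or 2. Gm40892, a predicted gene on chromosome 12, was at 1.87, 0.43 and 0.46 RPKM against 6.26, 6.02 and 7.66 (log2 fold change -2.07, SE 0.366, adjusted p = 0.0119), lost without B+A10-FMT replicate 2. Ins1 (log2 fold change -1.48) and Erp27, a protein disulfide isomerase homologue rich in pancreas (-1.29), were not called with the pancreatic sum as a covariate, nor without B+A10-FMT replicate 1 or 2 or B+Con-FMT replicate 1.

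Among the largest differences in the other direction, Pianp (chromosome 6, 124996720 to 125003096), a ligand of the paired receptor PILR-alpha, was at 24.7, 23.1 and 24.4 RPKM in B+A10-FMT and at 6.69, 12.4 and 3.43 in B+Con-FMT (log2 fold change 1.70, SE 0.326, adjusted p = 0.0172). All B-sa (12.4 to 16.1) and Con-sa mice (15.9 to 20.6) lay between these groups. The call was lost with the covariate and without B+A10-FMT replicate 2 or B+Con-FMT replicate 1. Npnt, nephronectin, a matrix ligand of integrin alpha-8 beta-1, was at 27.9, 29.98 and 27.4 RPKM against 12.4, 15.9 and 18.3 (log2 fold change 0.85, SE 0.113, adjusted p = 0.00186). Clic5, an intracellular chloride channel protein of the cell cortex, was at 15.5, 17.6 and 15.5 RPKM against 7.26, 8.7 and 10.02 (log2 fold change 0.84, SE 0.109, adjusted p = 0.00134). For both genes B-sa lay at the level of B+Con-FMT and Con-sa near that of B+A10-FMT, with 26.1 to 29.0 RPKM of Npnt and 12.7 to 14.1 of Clic5 in Con-sa. Also called were the receptor subunit gene Chrna6, at 1.05, 1.89 and 1.05 RPKM against 0.12, 0.45 and 0.21 and thus kept through the B+A10-FMT mice alone, and the unnamed gene I830077J02Rik, at 28.6, 35.2 and 33.1 RPKM against 15.6, 15.9 and 19.6 (log2 fold change 0.89, SE 0.089, adjusted p = 0.000322). Npnt, Clic5 and I830077J02Rik were called without any 1 mouse and with the covariate.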

How the data were processed

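Spleen RNA was extracted with TRIzol, enriched with oligo(dT) and sequenced by the authors, who deposited RPKM per RefSeq transcript in each mouse, normalized for transcript length and total reads. The paper names SOAPaligner for mapping, whereas the submitters' processing notes name HISAT, Bowtie2 and mm10. No counts were used. The lowest RPKM step, read from 24 to 41 genes with 1 transcript per mouse, was worth 0.997 to 1.03 of its geometric mean over mice. Rounding limits this, and absolute depth is unknown.

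RPKM of 60654 transcripts were summed to 18221 genes. The genes kept were tested with limma 3.58.1 in R 4.3.3 (trend and robust settings) on log2(RPKM + 1), where fold changes of low genes are understated, all 12 mice in 1 fit, two-sided, Benjamini-Hochberg adjusted over 12368 genes, with residual spread shared by the 4 groups. On simulated data for this comparison with 12368 genes, the fit called 164 of 200 genes altered by 0.5 and 192 of 200 altered by 1 on the log2 scale, along with 3 and 9 unaltered genes. Members and the 41 gene lists were chosen with earlier results of these data known. Named genes were the 10 largest changes per direction among called genes without overlap and at least 1 RPKM, up to 3 called members of lowest adjusted p per list, and the 17 stained or blotted genes. Some of these are left out of the text. Genes outside this rule, such as list members counted by name, Hspb1 and Hspa5, were picked with their values in view. The alternatives were scalings, filters, a pseudocount of 0.1, each mouse left out, single transcripts, removal of the length and GC trend, limma without trend and robust settings, only the 6 FMT mice, a replicate block and a pancreatic covariate, the last added after seeing the data. The authors' DEGseq calls were not used here. Python 3.11.15 and SciPy 1.17.1 were used for the permutation test.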

Additional observations from a re-analysis of the deposited data

How the results depend on the processing

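Of 1365 genes called, the count moved by over 1.5 times with equal totals outside the globin genes (2396, of which 1245 were among the 1365), with each transcript on its own (178 of 22997 transcripts) and with the pancreatic covariate (356, of which 288 were among the 1365). Without single mice it ranged from 237 to 1184, and moved by over 1.5 times without B+A10-FMT replicate 2 or 3 or B+Con-FMT replicate 1 or 2. Without a filter 934 were called, with only the 6 FMT mice 1041 and without limma's trend and robust settings 1218. Replicate numbers did not pair the mice, since deviations from the group means of same-numbered mice correlated at -0.277 to 0.0571, and with a replicate block 975 genes were called. The globin difference stayed negative, from -3.48 to -1.02 percentage points without single mice. Of 108 named genes called, 98 kept the call with median-of-ratios scaling, 104 with equal totals outside the globin genes, 94 with the block, 51 with the covariate and 49 to 94 without single mice, and none reversed. Estimates that were not called reversed for Cd163 (-0.071), Ly6c2 (-0.074), Ngfr (0.144) and Ccr7 (0.049) with the covariate, for Ccr7 with equal totals outside the globin genes (0.002) and without B+Con-FMT replicate 1 (range without single mice -0.107 to 0.03), and for Bcl2 with the length trend removed (-0.044). The cause was not tested. No read counts are given, so the precision of low values such as Hspa1a or Ins1 rests on 3 mice a group.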

Other observations

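The genes below were chosen after their values were seen, and no list of such genes was tested. Rgs13, a regulator of G protein signals in germinal centre B cells, was at 6.42, 7.19 and 8.82 RPKM in B+A10-FMT and at 14.6, 19.5 and 13.6 in B+Con-FMT (log2 fold change -0.99, SE 0.185, adjusted p = 0.0112). Nuggc, a nuclear GTPase of the same cells, was at 3.06, 2.33 and 3.76 RPKM against 6.38, 9.16 and 6.1 (log2 fold change -1.02, SE 0.159, adjusted p = 0.0041). Gcsam had a log2 fold change of -0.53 (adjusted p = 0.00931), and Bcl6, the factor of germinal centre B cells, had one of -0.33 and was not called (adjusted p = 0.0569), other than with median-of-ratios scaling, the length trend removed and without B+Con-FMT replicate 3. Rgs13 was not called without B+A10-FMT replicate 2, and Rgs13 and Gcsam were not called with the pancreatic covariate.

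Prg3, another gene of eosinophil granules, was at 1.94, 1.14 and 2.26 RPKM in B+A10-FMT and at 4.51, 3.9 and 4.79 in B+Con-FMT (log2 fold change -0.98, SE 0.207, adjusted p = 0.0159), with 2.35 to 2.66 in B-sa and 0.93 to 2.5 in Con-sa. It was also chosen after its values were seen, and its call was lost with the covariate and without B+A10-FMT replicate 2 or B+Con-FMT replicate 1.

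A gene listed only by the identifier 105245449, with no name or position in the tables used, was at 4.71, 2.57 and 2.36 RPKM in B+A10-FMT and at 13.8, 13.04 and 13.4 in B+Con-FMT, with 6.46 to 15.3 in B-sa and 3.7 to 4.15 in Con-sa.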
